A study of Arabidopsis thaliana with 20 samples.

Results

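The size and strand profile of small interfering RNAs (siRNAs) made from a G:U hairpin was compared between ocp11 plants and Col-0 plants of Arabidopsis thaliana. Libraries were chosen by title from the second of 2 read tables, giving ocp11 libraries 4 and 6 and Col-0 libraries 12 and 13, which is 4 of the 20 samples in the series. Every plant of these 4 libraries was of ecotype Columbia and was taken whole at 3 weeks of age. Each carried a transgene for a hairpin RNA against EIN2 whose stem contains G:U wobble pairs (hpEIN2[GU]). The ocp11 plants were mutant in addition, and the Col-0 plants carried the hairpin transgene in the unmutated background. OCP11 is listed as a synonym of AGO4 (AT2G27040, chromosome 2, 11536502 to 11542391) in the RefSeq table of the TAIR10.1 assembly. EIN2 (AT5G03280, chromosome 5, 787428 to 793404) encodes a membrane protein required for ethylene signalling. The genotype label of both ocp11 libraries names the WT hairpin while their titles name the G:U hairpin; the titles were followed, and both libraries held nearly all of their sense reads on the GU stem. Neither the ocp11 allele nor the hairpin insertion could be checked further from counts of stem reads. The labels do not say whether the library numbers mark transgene lines, single plants or pools, so the ocp11 mutation and the lines it was sampled in cannot be told apart. For comparison, 9 libraries of other groups were also used, all from plants at 3 weeks of age. They came from nrpd1a mutants with the G:U hairpin, and from ocp11 and Col-0 plants with the perfectly paired WT hairpin. The rest came from unmutated Columbia plants of the first table, with either hairpin.

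A hairpin RNA folds into a double-stranded stem that Dicer-like enzymes cut into siRNAs of both strands. In Arabidopsis DCL4 cuts the 21-nt, DCL2 the 22-nt and DCL3 the 24-nt class. ARGONAUTE4 (AGO4) binds 24-nt siRNAs and guides DNA methylation at matching loci, and it belongs to the same pathway as RNA polymerase IV, whose largest subunit is encoded by NRPD1a. A sense read has the strand of EIN2 mRNA, and an antisense read can pair with that mRNA. Sense reads were counted on the GU stem and antisense reads on the WT stem, at lengths from 18 to 25 nt. Positions and sequences of single siRNAs were not analysed here.

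Stem reads numbered 521435 in ocp11 library 4 and 1015676 in ocp11 library 6, against 103583 in Col-0 library 12 and 142131 in Col-0 library 13. These are raw counts without library totals, so they measure depth as much as siRNA level, and the part that depth had in the differences below was not tested. Size shares were taken within 1 strand of 1 library. No size share of the 4 libraries had a 95% Wilson interval wider than 0.650 percentage points to either side, which covers counting error only. In such bulk samples a change in the cells that make a class and a change in its level per cell cannot be told apart. With 2 against 2 libraries no exact permutation test can give a two-sided p below 0.333, so none of the 19 measures compared could pass a threshold of 0.05. The values, their spread and whether the groups overlap are therefore what is described. Each p of 2 against 2 libraries reflects only the order of their values, not the size of the difference or the spread.

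Of the 16 classes of length and strand, 11 (68.8%) did not overlap between ocp11 and Col-0. In 2 of them (12.5%) both ocp11 libraries lay above both Col-0 libraries, and in 9 (56.2%) both lay below. The 2 higher classes were sense siRNAs of 21 nt and antisense siRNAs of 24 nt. The 9 lower ones were sense siRNAs of 19, 20, 22, 24 and 25 nt and antisense siRNAs of 19, 20, 22 and 25 nt. Shares within a strand sum to a whole, so these classes are not independent of each other. Of the 16, 0 (0%) passed the exact permutation test with Benjamini-Hochberg adjustment, and 0 had an unadjusted p under 0.05.

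**Figure D1:**
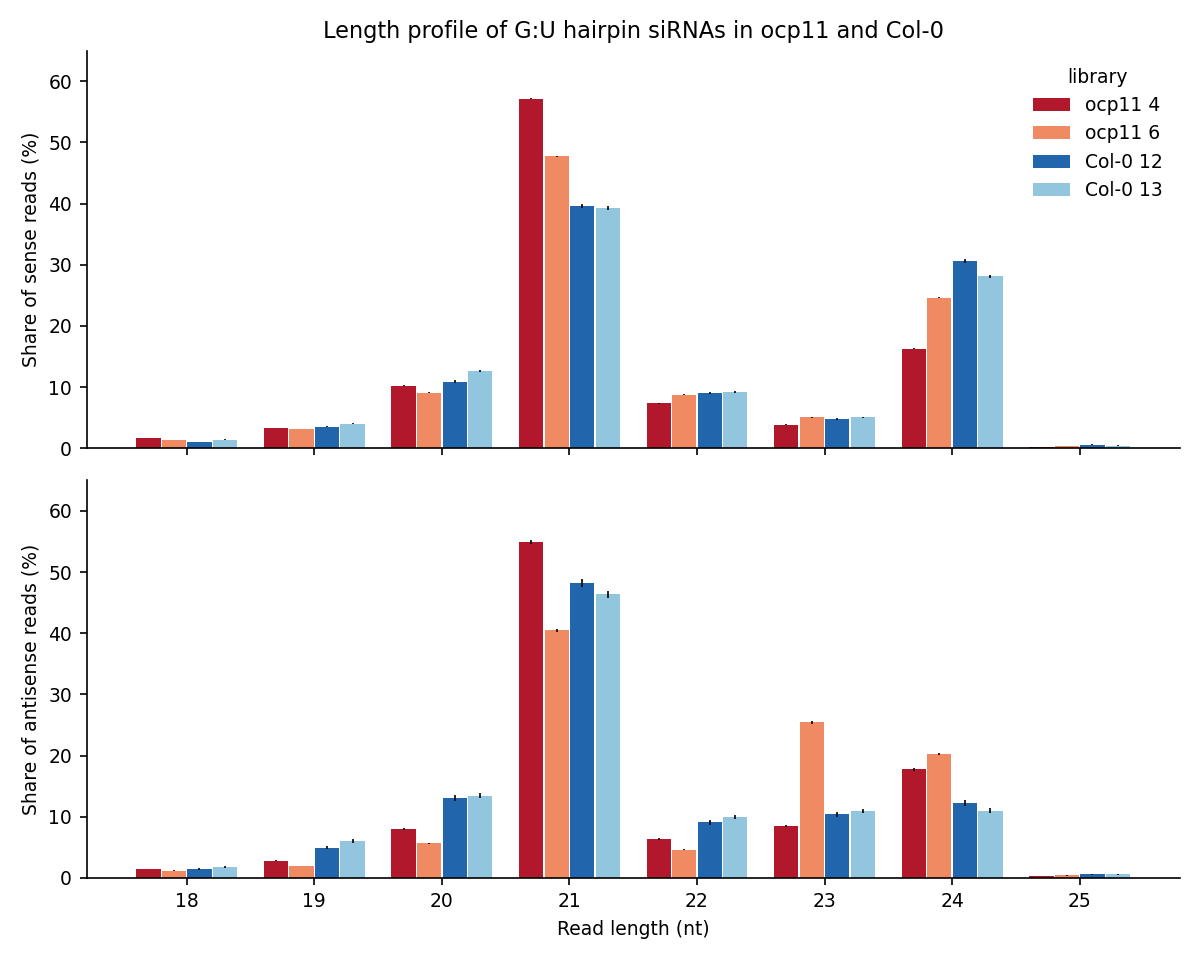
Share of each read length (18 to 25 nt) among sense reads on the GU stem (top, %) and antisense reads on the WT stem (bottom, %), in ocp11 libraries 4 and 6 and Col-0 libraries 12 and 13; bars are libraries and error bars are 95% Wilson intervals. The 24-nt bars of ocp11 are below those of Col-0 for sense reads and above them for antisense reads, and the 23-nt antisense bar of ocp11 library 6 reaches 25.4%. Against unmutated Columbia libraries of the first table, which are not drawn, the order of the 24-nt sense shares was the opposite one.

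The class that AGO4 binds differed from the Col-0 pair in opposite directions on the 2 strands. Among sense siRNAs the 24-nt class held 16.3% and 24.6% in ocp11 libraries 4 and 6, against 30.7% and 28.1% in Col-0 libraries 12 and 13. Both ocp11 values lay below both Col-0 values, and the closest pair, ocp11 library 6 minus Col-0 library 13, differed by -3.49 percentage points. The means were 20.4% ± 5.90 in ocp11 and 29.4% ± 1.83 in Col-0 (SD, n = 2 each), a difference of -8.95 percentage points (exact permutation test, two-sided, p = 0.333; adjusted p = 0.487). Without ocp11 library 4 this difference was -4.78 percentage points. Sense siRNAs of 24 nt were thus a large class in ocp11 as well, second only to 21 nt in both ocp11 libraries. The direction of the sense difference rested on the Col-0 pair. In 2 unmutated Columbia G:U libraries from the first table the 24-nt sense share was 14.3% and 14.8%, below both ocp11 libraries.

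Among antisense siRNAs the 24-nt class held 17.7% and 20.3% in ocp11 libraries 4 and 6, against 12.2% and 11.0% in Col-0 libraries 12 and 13. Each ocp11 library was above each Col-0 library by at least 5.52 percentage points. The means were 19.04% ± 1.82 in ocp11 and 11.6% ± 0.894 in Col-0 (SD, n = 2 each), a ratio of 1.64 and a difference of 7.44 percentage points (exact permutation test, two-sided, p = 0.333; adjusted p = 0.487).

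The 24-nt class made up a larger part of sense than of antisense siRNAs in Col-0, and more similar parts of both in ocp11. The 24-nt sense share minus the 24-nt antisense share was -1.49 and 4.27 percentage points in ocp11 libraries 4 and 6, against 18.4 and 17.1 in Col-0 libraries 12 and 13. It was 6.18 and 8.00 in the G:U libraries of the mutant nrpd1a. In the unmutated Columbia pair from the first table, also numbered 12 and 13, it was 6.31 and 2.04, 1 of which lay within the ocp11 range. Counted within the length, antisense reads made up 20.6% (95% Wilson interval 20.4 to 20.9) and 18.0% (17.9 to 18.2) of 24-nt reads in ocp11 libraries 4 and 6. They made up 10.1% (9.73 to 10.4) and 8.26% (7.98 to 8.54) in Col-0 libraries 12 and 13. The group means were 19.3% ± 1.83 and 9.17% ± 1.29 (ocp11 and Col-0, SD, n = 2 each).

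At every length from 18 to 22 nt the antisense share was lower in both ocp11 libraries than in both Col-0 libraries, the opposite of 24 nt. At 21 nt, the class made by DCL4, antisense reads were 18.6% and 18.4% of the reads in ocp11 libraries 4 and 6, against 25.5% and 21.4% in Col-0 libraries 12 and 13. At 20 nt they were 15.6% and 14.3% in ocp11, against 25.3% and 19.7% in Col-0. The widest separation of means among these lengths was at 19 nt, with 16.8% and 13.98% in ocp11 libraries 4 and 6 and 28.2% and 25.7% in Col-0 libraries 12 and 13. The groups overlapped at 23 and at 25 nt. This order from 18 to 22 nt did not hold against the first-table Columbia libraries. In the first-table Columbia libraries antisense reads were 13.7% and 13.3% at 18 nt and 15.3% and 12.9% at 21 nt, below both ocp11 libraries, and at 19, 20 and 22 nt they overlapped with ocp11. At 24 nt they were 10.2% and 11.9%, also below both ocp11 libraries. The nrpd1a libraries lay above both ocp11 libraries at 18, 19, 20 and 22 nt, for 19 nt at 30.8% and 34.1%. At 21 nt they overlapped with ocp11, at 17.1% and 21.1%. The 95% Wilson interval of the ocp11 and Col-0 values reached at most 3.38 percentage points to either side.

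**Figure D2:**
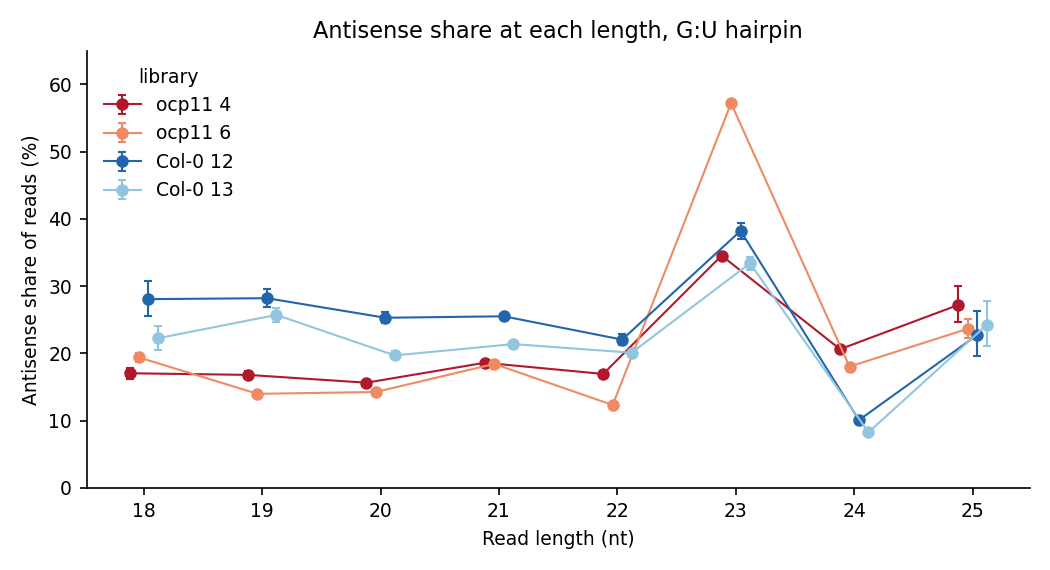
Antisense share of the reads of each length (y axis, %) against read length (x axis, nt) in ocp11 libraries 4 and 6 and Col-0 libraries 12 and 13; points are libraries and error bars are 95% Wilson intervals. From 18 to 22 nt both ocp11 libraries lie below both Col-0 libraries, and at 24 nt they lie above, at 20.6% and 18.0% against 10.1% and 8.26%. The order from 18 to 22 nt was not the same against the first-table Columbia libraries, which are not drawn.

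These shifts left the antisense share over all lengths within the same range in both groups. It was 19.2% and 21.02% in ocp11 libraries 4 and 6, against 21.9% and 18.7% in Col-0 libraries 12 and 13. Both ocp11 values lay inside the range of the Col-0 pair. The means were 20.1% ± 1.28 in ocp11 and 20.3% ± 2.27 in Col-0 (SD, n = 2 each), a difference of -0.21 percentage points with single library pairs from -2.72 to 2.29 (exact permutation test, two-sided, p = 1). Put as a ratio, there were 4.20 and 3.76 sense reads per antisense read in ocp11, and 3.56 and 4.34 in Col-0.

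The 21-nt class was the largest on both strands in all 4 libraries. Among sense siRNAs it held 57.2% and 47.7% in ocp11 libraries 4 and 6, against 39.6% and 39.3% in Col-0 libraries 12 and 13. The lower ocp11 library was 8.10 percentage points above the higher Col-0 library. The means were 52.4% ± 6.71 in ocp11 and 39.5% ± 0.210 in Col-0 (SD, n = 2 each), a difference of 12.99 percentage points (exact permutation test, two-sided, p = 0.333; adjusted p = 0.487). Without ocp11 library 4 it was 8.25 percentage points. This separation held against the Col-0 pair only. The first-table Columbia libraries had 50.3% and 56.1% and the nrpd1a libraries 55.6% and 53.5%, all within the ocp11 range. Set against the 24-nt class, there were 3.52 and 1.94 sense reads of 21 nt per read of 24 nt in ocp11, and 1.29 and 1.40 in Col-0. In the first-table Columbia libraries there were 3.53 and 3.79.

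Antisense siRNAs of 21 nt showed no such separation. Their share was 54.9% and 40.5% in ocp11 libraries 4 and 6, against 48.3% and 46.4% in Col-0 libraries 12 and 13, so the ocp11 pair lay on both sides of the Col-0 pair. The means were 47.7% ± 10.2 in ocp11 and 47.3% ± 1.35 in Col-0 (SD, n = 2 each), a difference of 0.39 percentage points with single library pairs from -7.79 to 8.57 (exact permutation test, two-sided, p = 1). The direction depended on single libraries, at -6.84 percentage points without ocp11 library 4 and -0.56 without Col-0 library 13. With 23-nt reads left out, a choice made after seeing the data, it was 60.1% and 54.3% in ocp11 against 53.9% and 52.1% in Col-0, a difference of 4.20 percentage points.

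The 22-nt class, cut by DCL2, was smaller in ocp11 than in the Col-0 pair on both strands. Its antisense share was 6.33% and 4.62% in ocp11 libraries 4 and 6, against 9.09% and 9.99% in Col-0 libraries 12 and 13. The groups did not overlap, with means of 5.47% ± 1.21 in ocp11 and 9.54% ± 0.637 in Col-0 (SD, n = 2 each) and a difference of -4.06 percentage points (exact permutation test, two-sided, p = 0.333; adjusted p = 0.487). Per 21-nt antisense read there were 0.115 and 0.114 reads of 22 nt in ocp11, and 0.188 and 0.215 in Col-0, so the ocp11 pair was nearly alike in this ratio although its 21-nt shares differed. The sense share of 22 nt was 7.38% and 8.75% in ocp11 libraries 4 and 6, against 9.03% and 9.15% in Col-0 libraries 12 and 13. That difference of -1.03 percentage points came with a closest pair of libraries at -0.28, and it was -0.34 without ocp11 library 4. The sense order held against the Col-0 pair only. The first-table Columbia libraries had 8.51% and 8.58%, within the ocp11 range, and the nrpd1a libraries 6.46% and 7.25%, below it.

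Antisense siRNAs shorter than 21 nt were also less frequent in ocp11. Those of 20 nt made up 7.94% and 5.68% in ocp11 libraries 4 and 6, against 13.1% and 13.4% in Col-0 libraries 12 and 13, a difference of -6.44 percentage points. Those of 19 nt made up 2.79% and 1.94% in ocp11, against 4.92% and 6.05% in Col-0. At 18 nt the groups overlapped, at 1.44% and 1.16% in ocp11 and 1.41% and 1.71% in Col-0. Among sense siRNAs, 20 nt held 10.2% and 9.09% in ocp11 against 10.9% and 12.6% in Col-0. Sense reads of 19 nt held 3.29% and 3.18% in ocp11 against 3.52% and 4.03% in Col-0, and those of 18 nt overlapped at 1.67% and 1.29% against 1.02% and 1.37%. The 25-nt class was under 1% everywhere, at 0.18% and 0.33% of sense reads in ocp11 against 0.56% and 0.41% in Col-0, and at 0.28% and 0.38% of antisense reads in ocp11 against 0.59% and 0.57% in Col-0.

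**Figure D3:**
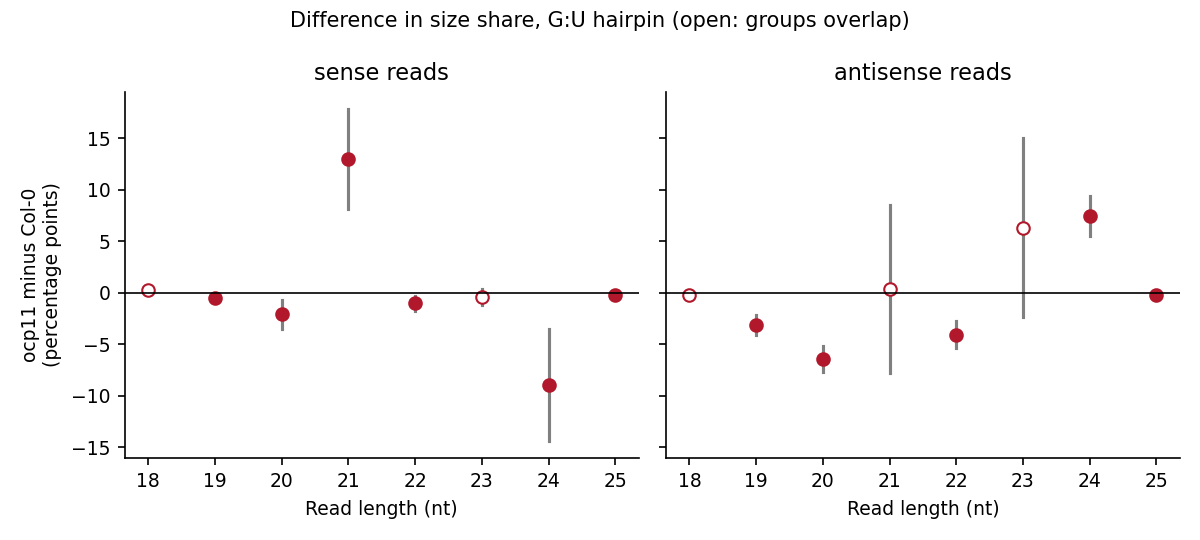
Difference in size share, ocp11 minus Col-0 (y axis, percentage points), against read length (x axis, nt) for sense (left) and antisense reads (right). Points are differences of group means, grey lines span the 4 differences between single ocp11 and Col-0 libraries, and open points mark classes whose groups overlap; the 24-nt point is at -8.95 for sense and at 7.44 for antisense reads.

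The 23-nt class separated the ocp11 libraries from each other. Among antisense siRNAs it held 8.54% in ocp11 library 4 and 25.4% in ocp11 library 6, against 10.4% and 10.9% in Col-0 libraries 12 and 13. Library 6 had 54268 antisense reads of 23 nt and 43393 of 24 nt, so 23 nt was its second largest antisense class. Per 24-nt antisense read there were 0.481 and 1.25 reads of 23 nt in ocp11 libraries 4 and 6, against 0.851 and 0.997 in Col-0 libraries 12 and 13. The excess was on 1 strand. Sense siRNAs of 23 nt held 3.85% and 5.06% in ocp11, against 4.73% and 5.03% in Col-0. Antisense reads were 57.2% (95% Wilson interval 56.9 to 57.5) of the 23-nt reads in ocp11 library 6, its only length with more antisense than sense reads, and 34.5% in ocp11 library 4, against 38.2% and 33.4% in Col-0. The 4 run entries of library 6 gave 23-nt antisense shares from 25.4% to 25.5%, so the value did not come from 1 run. The means were 17.0% ± 11.9 in ocp11 and 10.7% ± 0.370 in Col-0 (SD, n = 2 each), and the difference of 6.30 percentage points was -2.13 without ocp11 library 6.

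Mean read length summed up both strands. Sense siRNAs averaged 21.43 and 21.75 nt in ocp11 libraries 4 and 6, against 21.92 and 21.80 nt in Col-0 libraries 12 and 13. Antisense siRNAs averaged 21.60 and 22.05 nt in ocp11, against 21.42 and 21.36 nt in Col-0. Antisense minus sense, the mean length was 0.17 and 0.30 nt in ocp11, against -0.50 and -0.44 nt in Col-0. It was 0.00076 and -0.064 nt in nrpd1a libraries 2 and 18, and 0.155 and 0.127 nt in the first-table Columbia libraries. The change of sign was thus not seen against the first-table libraries. Both ocp11 values lay above those of all 6 other G:U libraries, of which the highest was 0.155 nt. Among these 6, the Col-0 and first-table Columbia pairs carry the same library numbers and may not be independent. The group difference was -0.27 nt for sense and 0.43 nt for antisense siRNAs (exact permutation test, two-sided, p = 0.333 and adjusted p = 0.487 for each). Without ocp11 library 4 these were -0.11 and 0.66 nt, and without ocp11 library 6 they were -0.43 and 0.21 nt. With the first-table control they were 0.26 and 0.36 nt, so the sense difference turned.

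The ocp11 libraries were less alike than the Col-0 libraries. As a distance between 2 profiles, the differences in size share were summed over the lengths at which the first profile was higher. For sense siRNAs it was 11.1 percentage points between the ocp11 libraries and 3.04 between the Col-0 libraries, and from an ocp11 to a Col-0 library it ran from 8.43 to 18.2. For antisense siRNAs it was 19.5 within ocp11 and 3.19 within Col-0, with 12.2 to 23.8 between the groups. Some distances between the groups were thus smaller than that within ocp11. Between runs of 1 library it was at most 1.33 for sense siRNAs. For antisense siRNAs it was at most 3.42, between runs of Col-0 library 12, which is more than the 3.19 between the Col-0 libraries.

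Reads on the other stem were few and also did not overlap between ocp11 and the Col-0 pair. The Col-0 antisense values below rest on 38 and 70 reads in libraries 12 and 13. Of the 6 other G:U libraries, 5 had a larger WT-stem part of sense reads than both ocp11 libraries. Likewise 5 had a smaller GU-stem part of antisense reads. These 6 include Col-0 and first-table Columbia pairs with the same library numbers, so they may not be independent. Within the ocp11 range lay nrpd1a library 18 for sense (0.265%) and first-table Columbia library 13 for antisense reads (0.701%). Sense reads on the WT stem were 0.0934% and 0.440% of sense reads in ocp11 libraries 4 and 6, against 1.24% and 1.23% in Col-0 libraries 12 and 13, while antisense reads on the GU stem were 0.522% and 0.823% of antisense reads in ocp11 and 0.167% and 0.262% in Col-0 (exact permutation test, two-sided, p = 0.333 for each).

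How far these values depend on the Col-0 pair can be read from the other G:U libraries, namely 2 of the mutant nrpd1a in the same table and the 2 first-table Columbia libraries. Together with the Col-0 pair these make 6 G:U libraries other than ocp11. The Col-0 and first-table Columbia pairs carry the same library numbers, so the 6 may not be independent of each other. Both ocp11 libraries lay outside the range of all 6 in only some of the 16 classes of length and strand. These were the antisense classes of 19, 20, 22, 24 and 25 nt, and no sense class. The 24-nt antisense share of 17.7% and 20.3% in ocp11 compared with 7.95% to 15.9% in the other 6 G:U libraries. The antisense shares of 19, 20, 22 and 25 nt were below all 6 in both ocp11 libraries, for 22 nt at 6.33% and 4.62% against 7.40% to 9.99%. Within the 24-nt length, the antisense share of 20.6% and 18.0% in ocp11 compared with 8.26% to 16.1%. Grouping these 6 libraries was decided after seeing the data, and no test was run on it.

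Sense siRNAs gave another picture, since the Col-0 pair itself stood apart. The 24-nt sense share of 16.3% and 24.6% in ocp11 compared with 22.1% and 21.4% in nrpd1a and with 14.3% and 14.8% in the first-table Columbia libraries. With these first-table libraries as the control in place of Col-0, the ocp11 difference was 5.90 percentage points in place of -8.95. For 21-nt sense siRNAs it was -0.74 in place of 12.99, with 50.3% and 56.1% in the first-table libraries. The direction of both sense differences therefore rested on which Columbia libraries served as control, whereas the 24-nt antisense difference was 8.69 percentage points with the first-table control and 7.44 with Col-0. The first table is named as a separate batch of sequencing, so table and library cannot be told apart in this comparison.

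**Figure D4:**
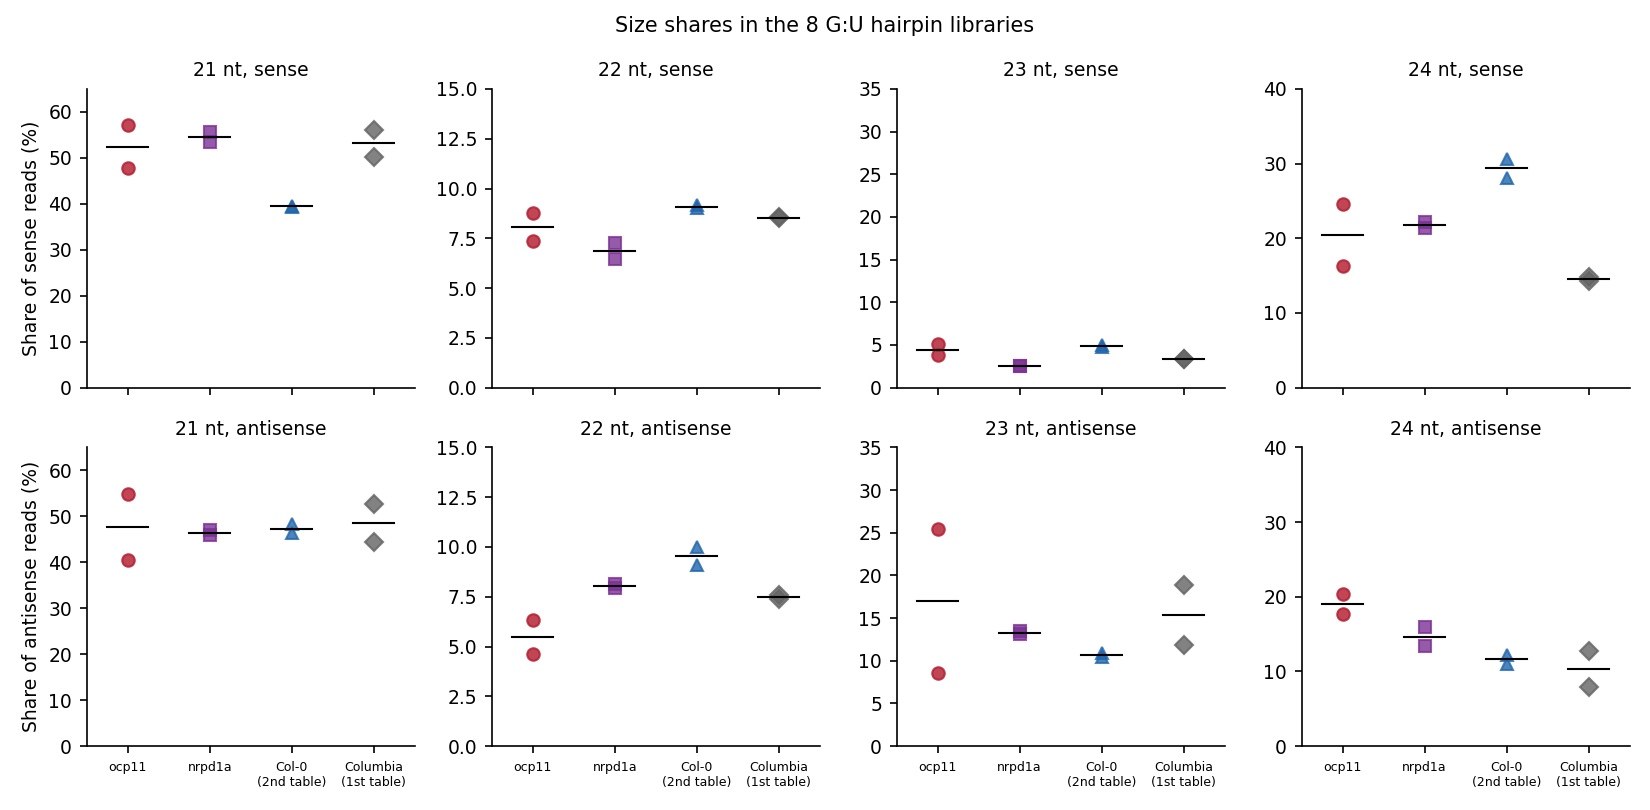
Shares of the 21, 22, 23 and 24 nt classes among sense (top, %) and antisense reads (bottom, %) in the 8 G:U hairpin libraries, by group; symbols are libraries and lines are means of 2. Only for 22-nt and 24-nt antisense reads do both ocp11 libraries lie outside all others, at 6.33% and 4.62% (22 nt) and at 17.7% and 20.3% (24 nt).

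The nrpd1a libraries were mutant in a subunit of RNA polymerase IV. Both ocp11 libraries lay on 1 side of both nrpd1a libraries in 9 of 16 classes (56.2%). These were 6 of 8 antisense and 3 of 8 sense classes, of which 19-nt sense counted with a gap of only 0.000714 percentage points. The 24-nt antisense share was 19.04% ± 1.82 in ocp11 and 14.7% ± 1.80 in nrpd1a (SD, n = 2 each), a difference of 4.36 percentage points without overlap (exact permutation test, two-sided, p = 0.333; adjusted p = 0.704). The 22-nt antisense share was 5.47% ± 1.21 in ocp11 and 8.03% ± 0.115 in nrpd1a, a difference of -2.56 without overlap. On the sense strand the nrpd1a libraries lay between the ocp11 libraries for 21 nt (55.6% and 53.5%) and for 24 nt. Sense siRNAs of 23 nt held 3.85% and 5.06% in ocp11, against 2.54% and 2.60% in nrpd1a. The nrpd1a libraries had more antisense than sense reads at 23 nt, at 56.9% and 60.8% antisense, as ocp11 library 6 had. So did first-table Columbia library 12, at 53.1%, in which 23 nt was the second largest antisense class (18.9%). Both mutants share the Col-0 libraries as control. The difference from Col-0 in the 24-nt antisense share was 7.44 percentage points for ocp11 and 3.08 for nrpd1a, and in the 24-nt sense share -8.95 and -7.62.

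With the perfectly paired WT hairpin the order of ocp11 and Col-0 in 24-nt antisense siRNAs was the opposite one. Their share was 14.2% and 20.1% in ocp11 libraries 10 and 11, against 25.6% in the 1 Col-0 library (number 15), a difference of -8.45 percentage points. This order rested on that library, since the first-table Columbia libraries with the WT hairpin had 2.12% and 7.41%, below both ocp11 libraries. The value with G:U, 7.44, lay above it by 15.9 percentage points (exact permutation of backgrounds within hairpins, two-sided, p = 0.111; adjusted p = 0.576), where 18 arrangements allow no p below 0.0556. With the first-table libraries of both hairpins added to the controls this 15.9 became 2.61. The 22-nt antisense share was lower in ocp11 with both hairpins, with differences of -4.06 percentage points with G:U and -3.39 with WT (exact permutation p of the difference 0.889), although the first-table WT libraries, at 3.12% and 6.78%, lay on both sides of the 6.43% and 6.45% of ocp11. The antisense share over all lengths differed by -0.21 percentage points with G:U and -19.3 with WT, where it was 46.3% and 46.3% in ocp11 libraries 10 and 11 and 65.6% in Col-0 library 15 (exact permutation p of the difference 0.222, adjusted p = 0.576). The first-table Columbia libraries with the WT hairpin had 62.0% and 41.7%, on both sides of ocp11, and with the first-table control the G:U difference was 4.84 percentage points.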

How the data were processed

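The raw counts of stem reads per library, strand, stem (WT or GU) and length were deposited in 2 tables, as the file headers say. The submitters' processing notes name cutadapt, Bowtie 1.0 and the TAIR10 build. How many mismatches were allowed, and where reads matching both stems were placed, is not given in the sources used here, and the tables hold no library totals. The second table lists 4 entries per library, headed replicate, which were summed as runs of 1 library. A chi-square test of read counts over the 16 classes gave p = 0.651 and 0.000525 in ocp11 libraries 4 and 6 and p = 0.0391 and 0.207 in Col-0 libraries 12 and 13 (adjusted p = 0.651, 0.0021, 0.0782 and 0.275). The runs of ocp11 library 6 thus differed by more than sampling noise, and its antisense share by run ranged from 20.7% to 21.4%. Of the table's libraries, 1 (nrpd1a, WT hairpin) has a number that matches no title and was not used here.

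Computed here were shares over 18 to 25 nt, 19 measures (16 classes, antisense share, 2 mean lengths), exact two-sided permutation tests over libraries and Benjamini-Hochberg adjustment over the 19 (Python 3.11.15, NumPy 2.4.6, SciPy 1.17.1). The code was tested on simulated counts. All 16 classes are reported. Members, measures and comparisons were chosen with earlier results of these data known. Alternatives were another range of lengths, the strands or stems counted together, runs averaged, each library left out, first-table controls and log2 ratios.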

Additional observations from a re-analysis of the deposited data

Results flagged for a closer look

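In 2 measures every ocp11 library moved one way from Col-0 with the G:U hairpin and the opposite way with the WT hairpin. In the 24-nt antisense share the gap between the hairpins was 15.9 percentage points (7.44 with G:U and -8.45 with WT; exact permutation of backgrounds within hairpins, two-sided, p = 0.111, adjusted p = 0.576). In mean antisense length the gap was 0.851 nt (0.43 nt with G:U and -0.42 nt with WT; exact permutation p = 0.0556, the smallest that 18 arrangements allow, adjusted p = 0.576). Neither passed the threshold. The WT hairpin has 1 Col-0 library, number 15, so both values rest on it and cannot be formed without it. With the first-table Columbia libraries added to the controls they were 2.61 percentage points and 0.174 nt. The first-table libraries with the WT hairpin had 24-nt antisense shares of 2.12% and 7.41%, below the 14.2% and 20.1% of ocp11, so the order with the WT hairpin was the opposite against them.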

How the results depend on the processing

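No paired analysis was possible because the ocp11 and Col-0 libraries share no numbers. No setting passed the threshold in any comparison; the smallest adjusted p of the exact tests was 0.317. Of the 19 measures of ocp11 against Col-0, 11 kept their direction in every setting that gave a value, among them all antisense classes other than 21 and 23 nt. Where the groups did not overlap, leaving out 1 library could not turn the direction, and averaging runs reused the same reads. Such settings therefore say little about how firm a direction is. The 24-nt antisense difference ranged from 1.47 (as a share of both strands) to 10.3 percentage points (23-nt reads left out). Shares of both strands and log2 ratios give no mean lengths, and shares over 20 to 24 nt no classes of 18, 19 or 25 nt.

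The direction of the other 8 measures turned in some settings. For the 21-nt antisense share the difference was -1.48 percentage points over 20 to 24 nt, -0.104 as shares of both strands, -0.810 with the first-table control and -0.210 with those libraries added or averaged in. On the log2 scale, against the 24-nt class, it was -0.718. The antisense share differed by 0.319 over 20 to 24 nt, 0.0171 with both stems summed, 4.84 with the first-table control and 2.32 with those libraries added or averaged in. With the first-table control the 18, 21, 23 and 24 nt sense differences were -0.473, -0.742, 1.04 and 5.90 percentage points and that of the mean sense length 0.262 nt. With those libraries added or averaged in, 18 and 23 nt sense gave -0.0964 and 0.311, and 18 nt was -0.0963 as a log2 ratio. Leaving out 1 library gave -1.03 to 0.185 (23-nt sense), -6.84 to 7.62 (21-nt antisense), -2.13 to 14.7 (23-nt antisense) and -1.82 to 1.39 (antisense share). Causes were not tested.

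Against nrpd1a, over 20 to 24 nt the 21-nt antisense difference was -0.503 and that of the mean sense length 0.00982 nt. Leaving out 1 library gave -6.88 to 2.60 (21-nt sense), -5.51 to 2.84 (24-nt sense), -5.95 to 8.51 (21-nt antisense), -4.76 to 12.1 (23-nt antisense), -3.28 to 0.126 (antisense share) and -0.159 to 0.159 nt (mean sense length). Between the hairpins, the gap in 21-nt sense share was -0.160 with first-table libraries added, and that in 22-nt antisense share -1.52 to 0.181 with 1 library left out. For both comparisons, 10 of the 19 measures were recomputed.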
